A study of Mus musculus with 9 samples.

Results

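Coagulation turns soluble fibrinogen into a fibrin clot, and fibrinolysis dissolves that clot again. The genes described here are 39 mouse genes of this system: clotting factors, the fibrinogen chains, the kininogens, the natural anticoagulants and the genes that control fibrinolysis. They were chosen by symbol, with the condition that the mean over the libraries be at least 10 normalized counts. All 39 of 39 listed genes met it, out of 19944 genes in the deposited table and 15238 that passed the same minimum and were tested.

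The study measured liver mRNA from mice with different forms of SND1, whose Tudor domain binds methylated arginine on other proteins, to learn what that domain does for transcription. Wild-type mice (WT), mice labelled as a Snd1 knockout (KO) and mice labelled as a knock-in of a mutated Tudor domain (KI) gave 3 libraries each. The titles name the FVB strain for all of them. Every mouse was a male of 60 days on normal chow under the same light cycle, and stranded mRNA libraries were made from total RNA. The labels name no Cre driver, clone or pooling. KO_1 and the like stand for the genotype and the number in a sample's title. Nothing in the labels tells whether mice came from separate litters, so p-values measure only the spread between these libraries.

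Clotting begins when tissue factor meets factor VII, or when factor XII is activated on a surface together with kallikrein and kininogen. Both routes activate factor X, which turns prothrombin into thrombin, and thrombin cuts fibrinogen to fibrin. Hepatocytes make most of these proteins and secrete them into plasma, whereas tissue factor, thrombomodulin and von Willebrand factor come largely from vascular and other cells. In rodents and humans the fibrinogen genes are classic acute phase genes, induced in hepatocytes by interleukin-6 through STAT3.

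Recovered totals ran from 59678412 to 66384374 gene reads per library. Snd1, on chromosome 6 from 28475139 to 28935162 (GRCm38, forward strand), read 6951, 8446 and 6512 normalized counts in WT, 227, 414 and 359 in KO and 5373, 7941 and 5595 in KI, which fits the labels of the KO libraries and, for a mutated domain, checks nothing in KI. The cell type label reads hepatocyte but the tissue is whole liver. Transcripts of 14 of 14 endothelial markers and 12 of 12 Kupffer cell markers passed the minimum of 10. Pancreatic transcripts made up 5.99% of the reads of KI_3, 1.26% of WT_3 and 0.522% of KI_1, against 0.00175% to 0.00525% in the other libraries, which include every KO library. In the fit of all 9 libraries 0 of 15 pancreas markers were called in any comparison, but their levels were not balanced between genotypes. Their median log2 fold change was -5.46 in KO against WT and 10.10 in KI against KO. Without KI_2, 14 of the 15 were called higher in KI than in KO. Counts of genes called between KO and another genotype are therefore also given without KI_3, WT_3 and KI_1.

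In KO livers 10 of the 39 genes passed the test against WT, 9 of them higher and 1 lower (limma, Benjamini-Hochberg adjusted p under 0.05 over all genes tested). Of all 15238 genes tested 8.83% were called, 4.63% higher and 4.2% lower. The counts by role given further below stand beside these shares, and 0 called of 2 or 3 genes does not set a role apart. The genes that rose were the fibrinogen chain genes Fga, Fgb and Fgg, the anticoagulants Serpina10, Pros1 and Thbd, the fibrinolysis inhibitors Cpb2 and Serpinf2, and the kininogen Kng2. The gene that fell was F13b, the carrier subunit of factor XIII. The median log2 fold change, KO against WT, was 0.28 over the 39 genes and 0.00 over all genes tested, and 26 of the 39 lay above 0. In bulk liver, fewer cells of a type and less RNA per cell cannot be told apart.

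The KO and WT libraries did not overlap for 18 of the 39 genes, 15 of them higher and 3 lower in KO. The same held for 29.1% of all genes, 15% higher and 14.2% lower. Without WT_3, KI_1 and KI_3, the libraries with pancreatic transcripts, 0 of the 39 genes and 30 genes in all were called by limma, with 12 of the 39 at an unadjusted p under 0.05. In the fit of all 9 libraries 18 of the 39 genes, and 25% of all genes, had such a p. All 10 called genes kept their sign without those libraries, where KI had 1 library left and its spread was assumed to be like that of the other groups.

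**Figure D1:**
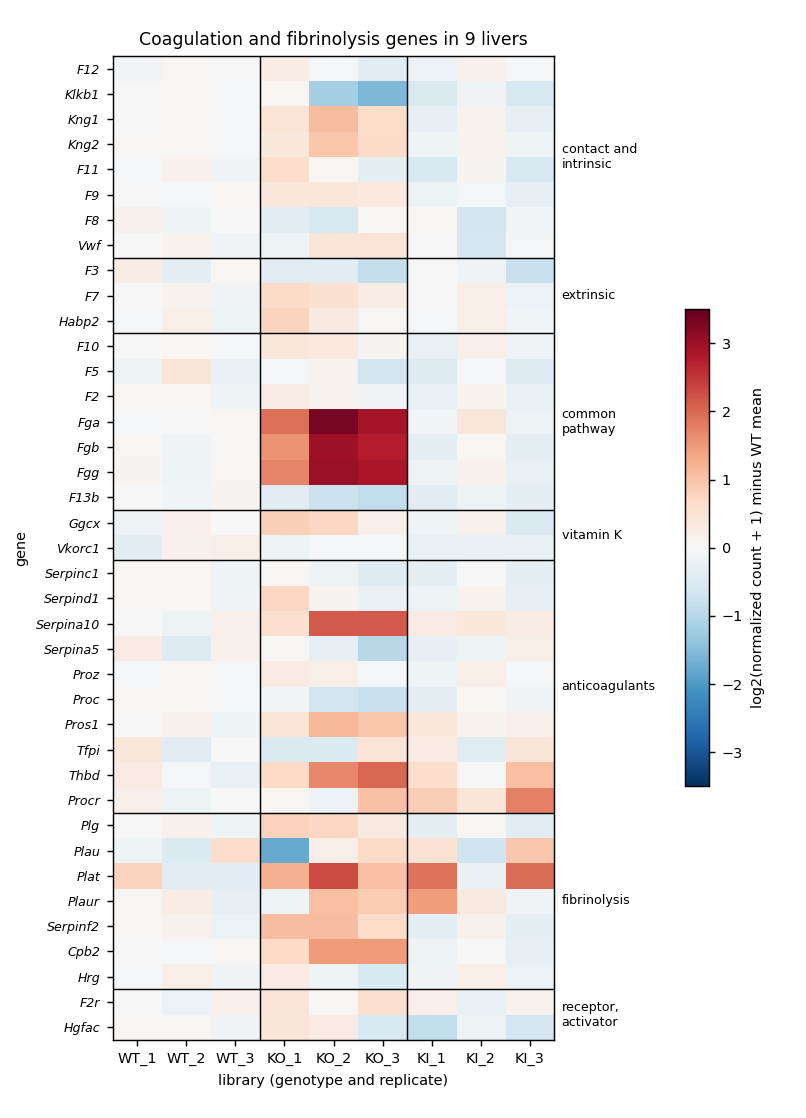
Colour gives log2(normalized count + 1) minus the WT mean for each of the 39 genes (rows, grouped by role) in each of the 9 libraries (columns). The darkest red cells are those of the fibrinogen chain genes in KO_2 and KO_3, whereas the KI columns stay near the WT columns for most genes.

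The fibrinogen chain genes showed the largest changes among the called genes. Fga, Fgb and Fgg encode the alpha, beta and gamma chains, and copies of all 3 are joined into 1 secreted molecule. They lie side by side on chromosome 3 of GRCm38, Fgg from 83007724 to 83015049 and Fga from 83026076 to 83033627 on the forward strand, and Fgb from 83040141 to 83049863 on the reverse strand. Because these neighbours moved together, the 250 bases before each RefSeq transcription start are printed here, 5′ to 3′ on the strand of the gene (RefSeq, GRCm38.p6). Capitals mark CTGGGAA, the core of the interleukin-6 response element of acute phase genes.
Fgg, chr3:83007474-83007723, forward strand: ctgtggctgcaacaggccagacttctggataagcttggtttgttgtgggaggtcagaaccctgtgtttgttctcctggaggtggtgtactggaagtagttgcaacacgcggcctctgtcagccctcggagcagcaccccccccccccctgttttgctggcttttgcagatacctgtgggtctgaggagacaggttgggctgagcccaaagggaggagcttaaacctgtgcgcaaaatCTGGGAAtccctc
Fga, chr3:83025903-83026152, forward strand: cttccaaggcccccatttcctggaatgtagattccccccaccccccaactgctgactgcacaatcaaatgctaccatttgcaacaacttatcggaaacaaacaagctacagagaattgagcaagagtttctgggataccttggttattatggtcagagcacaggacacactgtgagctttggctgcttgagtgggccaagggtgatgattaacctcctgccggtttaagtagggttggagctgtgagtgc
Fgb, chr3:83049864-83050113, reverse strand: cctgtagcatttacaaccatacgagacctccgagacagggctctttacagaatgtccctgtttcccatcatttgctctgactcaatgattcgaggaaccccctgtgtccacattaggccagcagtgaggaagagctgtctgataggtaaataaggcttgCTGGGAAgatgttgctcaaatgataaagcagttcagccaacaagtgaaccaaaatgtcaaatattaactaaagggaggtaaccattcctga
The core stood 13 bases before the start in Fgg and 91 bases before it in Fgb, with no full match in this window of Fga. That window of Fga does hold ctgggat, which differs from CTGGGAA only in its last letter. RefSeq places the Fga start inside the GENCODE gene, so the end of that window is transcribed in the GENCODE model.

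Fga read 177447, 185481 and 194286 normalized counts in WT, 707756, 1861909 and 1381773 in KO, and 172589, 243251 and 163932 in KI. Fgb read 226480, 197375 and 219063 in WT, 641309, 1683556 and 1434507 in KO, and 171312, 224611 and 170311 in KI. Fgg read 191674, 163338 and 187485 in WT, 589057, 1476993 and 1301163 in KO, and 158723, 200750 and 151336 in KI. For each chain all 3 KO libraries lay above every WT and KI library, KO_1 was the lowest KO library, and WT and KI overlapped. Fga rose 7.09-fold in KO over WT in the ratio of means, or by 2.72 ± 0.41 (SE) on the log2 scale of limma, with an adjusted p of 0.00449. Fgb rose 5.85-fold, with a log2 fold change of 2.44 ± 0.42 (adjusted p = 0.00759), and Fgg 6.21-fold, with 2.53 ± 0.40 (adjusted p = 0.00511). These calls held when any 1 library was left out. Without the 3 libraries with pancreatic transcripts the log2 fold changes were 2.75, 2.45 and 2.56, and the adjusted p were 0.229, 0.266 and 0.229.

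The fibrinogen genes were also a visible part of the whole liver transcriptome. Their summed share of gene reads was 0.981%, 0.902% and 0.984% in WT, 3.03%, 8% and 7.5% in KO, and 0.785%, 1.1% and 0.687% in KI. The other 36 genes together took 1.2% to 1.38% in WT, 1.65% to 1.8% in KO and 0.92% to 1.38% in KI. Proportions between the chains moved far less than their levels. Fgb over Fga was 1.28, 1.06 and 1.13 in WT, 0.91, 0.90 and 1.04 in KO, and 0.99, 0.92 and 1.04 in KI, so every KO and KI library lay below every WT library. Fgg over Fga ranged from 0.88 to 1.08 in WT, 0.79 to 0.94 in KO and 0.83 to 0.92 in KI.

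**Figure D2:**
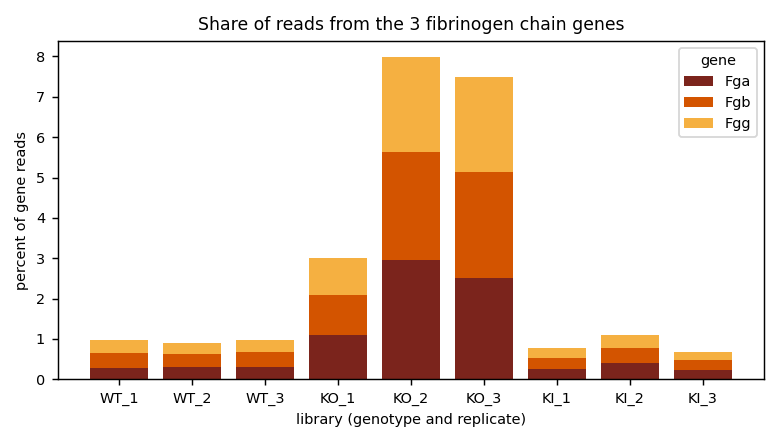
Each bar gives the percent of all gene reads of a library that came from Fga, Fgb and Fgg, stacked by gene. KO_2 and KO_3 reach 8% and 7.5%, KO_1 reaches 3.03%, and the WT and KI libraries lie between 0.687% and 1.1%.

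Other acute phase genes moved with fibrinogen. Of 14 reference genes such as Saa1, Hp and Lbp, 13 were called higher in KO than in WT, and 4 (Saa1, Saa2, Orm2 and Lcn2) without the 3 libraries with pancreatic transcripts. Their summed level was 385521 to 460696 normalized counts in WT, 2680550 in KO_1, 6836386 in KO_2 and 6779698 in KO_3, and 415491 to 476694 in KI. KO_1 was thus the lowest KO library for these genes as it was for fibrinogen. Among cell type markers, 2 of 12 Kupffer cell genes (Mpeg1 and Marco), 1 of 7 tested neutrophil and monocyte genes (Mmp8) and 1 of 6 tested cholangiocyte genes (Sox9) were called higher in KO. Of all genes tested 4.63% were called higher. Without those 3 libraries 0 genes of these lists were called. Sox9 read 44.1, 24.1 and 41 in WT, 101, 97.2 and 104 in KO, and 38.6, 56.6 and 31.4 in KI. The other cholangiocyte markers did not all follow it, as 4 of the 6 tested genes lay above 0 in KO against WT. The summed cholangiocyte markers ranged from 565 to 605 in WT, 481 to 662 in KO and 542 to 725 in KI. The summed Kupffer markers ranged from 16861 to 30950 in WT, 23911 to 49612 in KO and 20420 to 34253 in KI. The summed neutrophil and monocyte markers ranged from 118 to 339, 253 to 1819 and 175 to 512. In KO against WT the call of Mpeg1 held when any 1 library was left out. That of Marco ended without WT_1, WT_2, WT_3, KO_3 or KI_3 (limma adjusted p 0.0525 to 0.119). That of Sox9 ended without WT_1, WT_2, WT_3, KO_2 or KO_3 (0.0525 to 0.0845). The Mmp8 call ended without any 1 library other than KO_1 or KI_2 (0.0534 to 0.165). None of the 11 tested hepatocyte markers was called. Their sums ranged from 4833656 to 6326121 in WT, 3442864 to 5762122 in KO and 3725406 to 5439341 in KI. Without KO_1, 3 of the 11 (Apoc3, Ass1 and Ttr) were called lower in KO than in WT. In that fit 3 of the 7 neutrophil and monocyte genes (Mmp8, S100a8 and S100a9) were called higher. Of all genes it called 1104 higher and 1412 lower. The part of these cells in the fibrinogen result was not tested.

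The promoter motifs were described over the 31 of 39 genes with a RefSeq promoter, in windows from 250 bases before to 50 bases after the start, searched on both strands. CTGGGAA was in 5 of the 31, and in 3 of the 7 raised genes with a promoter, namely Fgb, Fgg and Kng2. It is in 11.1% of the 32851 promoters of that length. TTCNNNGAA, the STAT type, was in 5 of the 31, namely Fga, Fgb and Pros1 of the raised genes and also F9 and Hgfac, and in 8.3% of all promoters, and a CTGGGAA match can overlap it. TTGCNNAA, the C/EBP type, was in Fga, Fgb, Cpb2 and Kng2 of the raised genes, in 14 of the 31 and in 10.8% of all promoters. No member held CAAAGTCCA, the HNF4 type, which is in 0.475% of all promoters. These matches describe letters in a window, not bound sites.

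In the contact and intrinsic route, 1 of 8 genes rose in KO and 0 fell. Kng2 encodes a kininogen, a cofactor of contact activation and the source of bradykinin. It lies on chromosome 16 from 22985854 to 23029482, reverse strand. Its counts were 13259, 13233 and 12484 in WT, 16954, 25425 and 20740 in KO, and 11776, 13980 and 11605 in KI. All KO libraries lay above both other genotypes, 1.62-fold over WT in the means, with a log2 fold change of 0.68 ± 0.16 (limma adjusted p = 0.0261). The call was lost (adjusted p 0.0597 to 0.0922) on leaving out WT_1, WT_2, WT_3, KO_2 or KO_3.

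Kng1, the main kininogen gene, lies next to it (chromosome 16, 23057865 to 23082078, forward strand). It read 103186, 105294 and 100622 normalized counts in WT, 143693, 221633 and 161064 in KO and 83795, 112048 and 83868 in KI. The KO libraries again stood above all others, but the log2 fold change of 0.74 ± 0.24 against WT had an adjusted p of 0.0838. The pair shares 557 stretches of 50 bases, 17.2% of those in Kng1 and 19.4% of those in Kng2, so part of their reads could fall to either. Kng1 over Kng2 was 7.78 to 8.06 in WT, 7.77 to 8.72 in KO and 7.12 to 8.02 in KI.

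F9 encodes factor IX, the vitamin K dependent protease lacking in haemophilia B. Its counts were 16309, 15544 and 16939 in WT, 20845, 21322 and 20615 in KO, and 14429, 15713 and 13248 in KI. KO stood above the other genotypes with little spread, at a log2 fold change of 0.36 ± 0.11 against WT (adjusted p = 0.0751). F8, factor VIII, read 1673, 1380 and 1531 in WT, 1161, 1031 and 1604 in KO, and 1596, 978 and 1422 in KI, and all genotypes overlapped. Vwf, the von Willebrand factor that carries factor VIII, read 335, 362 and 305 in WT, 302, 459 and 461 in KO, and 338, 223 and 323 in KI, again with overlap. Of the 14 endothelial markers 0 were called, and their sums ranged from 23719 to 30393 in WT, 21790 to 34712 in KO and 20911 to 34139 in KI.

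Klkb1, plasma prekallikrein, is singled out after its values were seen. It read 9757, 10279 and 9339 in WT, 10291, 4389 and 3272 in KO, and 6922, 8962 and 6662 in KI. KO_1 lay at the top of the WT range whereas KO_2 and KO_3 lay far below, and the log2 fold change of -0.89 ± 0.33 had an adjusted p of 0.132. Its annotated exons share 2267 of 5249 bases with the same-strand model Gm45753, so its reads may have been split. F12 and F11, which encode the zymogens factor XII and factor XI, overlapped between KO and WT.

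Of the 3 genes of extrinsic initiation, 0 were called. F7, factor VII, read 4376, 4834 and 4090 in WT, 7059, 6443 and 5350 in KO, and 4415, 5155 and 3819 in KI. Every KO library exceeded every other library, and the log2 fold change of 0.50 ± 0.14 against WT had an adjusted p of 0.0591. F3, tissue factor, is named after its values were seen as 1 of the 3 genes whose KO libraries all lay below WT, at 272, 182 and 239 in WT and 172, 177 and 128 in KO. Its log2 fold change was -0.53 ± 0.26 (adjusted p = 0.238). Habp2, a protease that can activate factor VII, overlapped between genotypes.

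In the common pathway F2, F10 and F5 did not pass the test, in contrast to the fibrinogen genes that follow them in the cascade. F2, prothrombin, read 86775, 87637 and 74438 in WT, 98365, 90471 and 75626 in KO, and 69533, 90604 and 69598 in KI. The genotypes overlapped, and the log2 fold change in KO was 0.08 with a 95% interval from -0.36 to 0.53. F13b, whose product carries the enzyme that cross-links fibrin, was the only called gene of the set to fall (chromosome 1, 139501702 to 139523752, forward strand). It read 18650, 17368 and 19990 in WT, 14417, 11128 and 10255 in KO, and 14238, 16362 and 14926 in KI. Every KO and KI library lay below every WT library, and the KO log2 fold change fell by 0.66 ± 0.14 (adjusted p = 0.0219). The call was lost (adjusted p 0.0528 to 0.0898) without WT_1, WT_2, WT_3, KO_2 or KO_3.

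The vitamin K cycle lets clotting factors be carboxylated, and 0 of its 2 genes were called in KO. Ggcx, the carboxylase, read 2570, 3344 and 2915 in WT, 5212, 4811 and 3299 in KO, and 2642, 3225 and 2058 in KI. KO_3 lay within the WT range, and the log2 fold change was 0.57 ± 0.20 (adjusted p = 0.112). Vkorc1, the epoxide reductase that warfarin blocks, overlapped between KO and WT, and 401 of its 840 exon bases are shared with the same-strand model Gm21974.

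Among 10 anticoagulant genes 3 rose in KO and 0 fell. Serpina10 encodes the protein Z dependent inhibitor of factor Xa (chromosome 12, 103614786 to 103631444, reverse strand). It read 15193, 13367 and 17302 in WT, 22382, 67281 and 67001 in KO, and 18722, 19610 and 18158 in KI. KO_2 and KO_3 were close to each other and well above KO_1, which itself lay above all WT and KI libraries. Serpina10 rose 3.42-fold in KO over WT, a log2 fold change of 1.61 ± 0.36 (adjusted p = 0.0223). Leaving out WT_1, WT_2, WT_3, KO_2 or KO_3 ended the call (adjusted p 0.0552 to 0.0918).

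Pros1 encodes protein S, the cofactor of activated protein C (chromosome 16, 62854307 to 62929346, forward strand). It read 3032, 3297 and 2682 in WT, 4136, 6747 and 5922 in KO, and 3904, 3268 and 3363 in KI. The KO libraries exceeded all others, with a 1.87-fold rise over WT and a log2 fold change of 0.87 ± 0.17 (adjusted p = 0.0138, and 0.0553 to 0.0583 without WT_1, WT_3 or KO_2). Thbd encodes thrombomodulin, the endothelial receptor that turns thrombin to the activation of protein C (chromosome 2, 148404466 to 148408188, reverse strand). It read 181, 145 and 125 in WT, 242, 482 and 607 in KO, and 228, 149 and 311 in KI. KO lay above WT in every library but overlapped KI, and the rise over WT was 2.95-fold, a log2 fold change of 1.47 ± 0.36 (adjusted p = 0.0326). That call ended without WT_1, WT_2, WT_3, KO_2 or KO_3 (adjusted p 0.0709 to 0.124). None of the 14 endothelial markers was called in the same comparison.

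The other anticoagulant genes were not called. Serpinc1, antithrombin, read 109960, 110527 and 93840 in WT, 107801, 92861 and 76151 in KO, and 83695, 105301 and 81784 in KI. The genotypes overlapped, with a KO log2 fold change of -0.19 and a 95% interval from -0.67 to 0.28. Proc, protein C, read 24811, 24705 and 23007 in WT, 22567, 15386 and 13991 in KO, and 19135, 25362 and 22156 in KI. Its KO libraries all lay below WT, with a log2 fold change of -0.51 ± 0.19 (adjusted p = 0.12). Proc therefore did not follow its cofactor Pros1 or its activating receptor Thbd in direction.

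Of 7 genes of fibrinolysis and its control, 2 rose in KO and 0 fell, and both encode inhibitors. Cpb2 encodes the carboxypeptidase that trims fibrin and so slows fibrinolysis (chromosome 14, 75242287 to 75283555, forward strand). It read 21287, 20624 and 22561 in WT, 34939, 60305 and 59804 in KO, and 18920, 21786 and 17622 in KI. All KO libraries lay well above the rest, and Cpb2 rose 2.4-fold over WT, a log2 fold change of 1.22 ± 0.21 (adjusted p = 0.00735). No single library decided this call. Without the 3 libraries with pancreatic transcripts the value was 1.26 (adjusted p = 0.145).

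Serpinf2 encodes alpha-2-antiplasmin, the main plasmin inhibitor (chromosome 11, 75431732 to 75439591, reverse strand). It read 43387, 46475 and 36534 in WT, 87817, 89123 and 65364 in KO, and 33613, 46628 and 32964 in KI. Unlike the other raised genes it was lowest in KO_3 among the KO libraries. It rose 1.92-fold over WT, a log2 fold change of 0.93 ± 0.20 (adjusted p = 0.0216, and 0.0534 to 0.0884 without WT_1, WT_2, WT_3 or KO_2). Plg, the plasminogen it acts against, read 121856, 133358 and 108234 in WT, 210760, 199636 and 149395 in KO, and 96025, 127569 and 93880 in KI. KO stood above both other genotypes in every library, yet the log2 fold change of 0.61 ± 0.24 had an adjusted p of 0.149. Plg over Serpinf2 was 2.81 to 2.96 in WT, 2.24 to 2.40 in KO and 2.74 to 2.86 in KI.

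The activators of plasminogen were scarce in these livers. Plat, the tissue activator, had a WT mean of 14.2 ± 7.62 normalized counts and Plau, urokinase, 42.5 ± 17.4 (SD, n = 3 each), and neither was called. Every KO library still lay above every WT library for Plat, with a KO mean 2.99-fold that of WT. For Plau this ratio was 0.965, with overlap. Hrg, a plasma protein that binds plasminogen and heparin, overlapped between KO and WT. Neither F2r, a thrombin receptor, nor Hgfac, a relative of factor XII that activates hepatocyte growth factor, was called in KO.

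**Figure D3:**
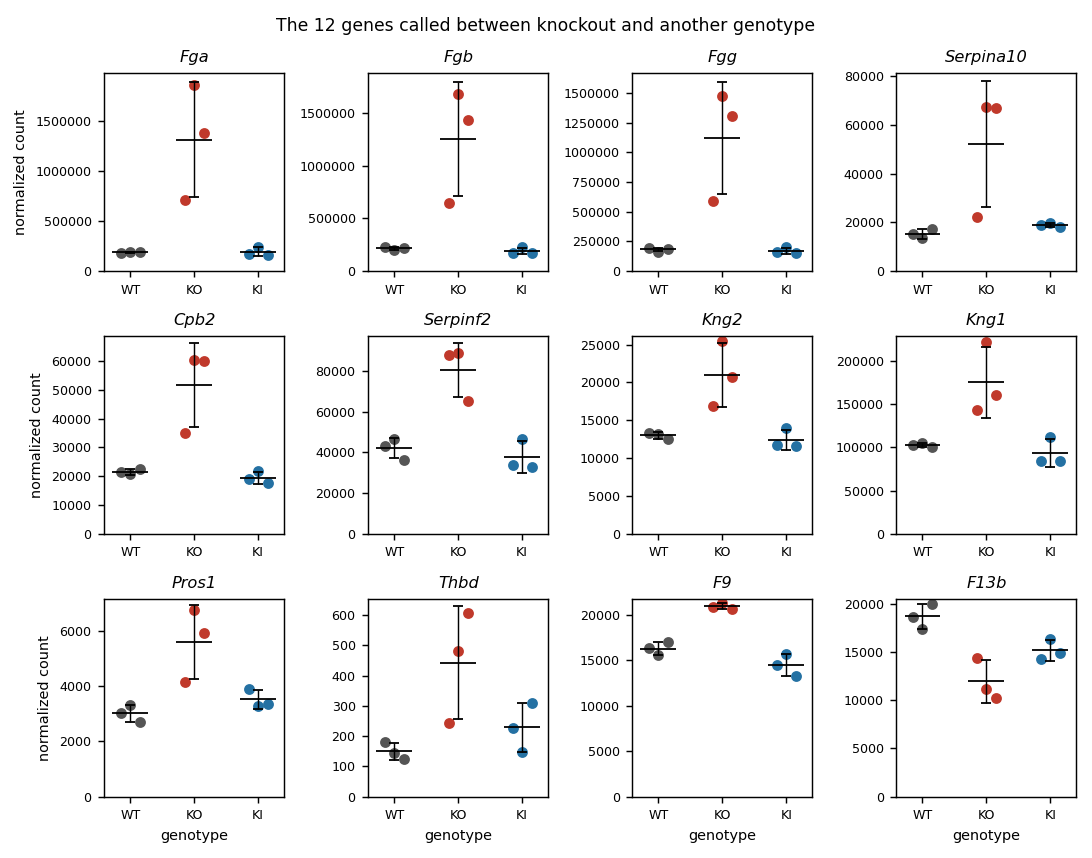
Points give the normalized count of each library for the 12 genes called in KO against WT or in KI against KO, with the group mean (line) and SD over 3 libraries (bar), each panel on its own linear axis from 0. KO exceeds WT in all 11 genes other than F13b.

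Mutation of the Tudor domain left no gene of the set past the threshold. Of the 39 genes 0 were called in KI against WT by limma, 0 by edgeR and 0 by DESeq2, and 2, 1 and 4 had an unadjusted p under 0.05. Of all genes tested limma called 0.0263%, or 4 genes (0.00656% higher and 0.0197% lower), and 11.6% had an unadjusted p under 0.05. Over all genes edgeR called 1 and DESeq2 372, or 2.44%. The KI and WT libraries did not overlap for 5 of the 39 genes, 2 higher and 3 lower, against 19.6% of all genes, 9.47% higher and 10.2% lower. This comparison uses the same WT libraries as KO against WT, so the values are placed side by side and not correlated. Against WT the log2 fold change of Fga was 0.04 in KI (95% interval -0.89 to 0.96) and 2.72 in KO (1.80 to 3.64). For Fgb it was -0.19 (-1.12 to 0.74) and 2.44 (1.50 to 3.37), and for Fgg -0.09 (-0.98 to 0.79) and 2.53 (1.64 to 3.42).

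The 2 genes at an unadjusted p under 0.05 in limma were Procr and Hgfac. Procr, the endothelial protein C receptor, read 37.4, 28.9 and 33 in WT, 34.5, 28.4 and 67.9 in KO, and 60.1, 44.8 and 113 in KI. Its KI libraries all exceeded WT, with a log2 fold change of 1.01 ± 0.44 (adjusted p = 0.415). Hgfac read 4784, 4659 and 4174 in WT, 6056, 5564 and 3163 in KO, and 2512, 4025 and 3029 in KI, a log2 fold change of -0.53 ± 0.24 (adjusted p = 0.43). Plat (adjusted p = 0.526) read 23, 9.63 and 10 in WT, 32.5, 66.8 and 28.1 in KO, and 51.5, 11 and 53.8 in KI. It was higher than in every WT library in KI_1 and KI_3 but not in KI_2. KI_1 and KI_3 are the KI libraries with pancreatic transcripts, and without those and WT_3 the Plat log2 fold change was -0.42, so its direction rests on them. KI_1 and KI_3 also had higher Procr and lower Hgfac values than KI_2.

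Over the 39 genes the median log2 fold change in KI was -0.12, and 26 genes lay below 0. By library, the median deviation from the WT mean of KI_2 was 0.08, while KI_1 had -0.17 and KI_3 had -0.20. The 2 negative medians are those of the KI libraries with pancreatic transcripts. Leaving those out leaves KI_2 alone, so no replicate remains to check the direction.

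**Figure D4:**
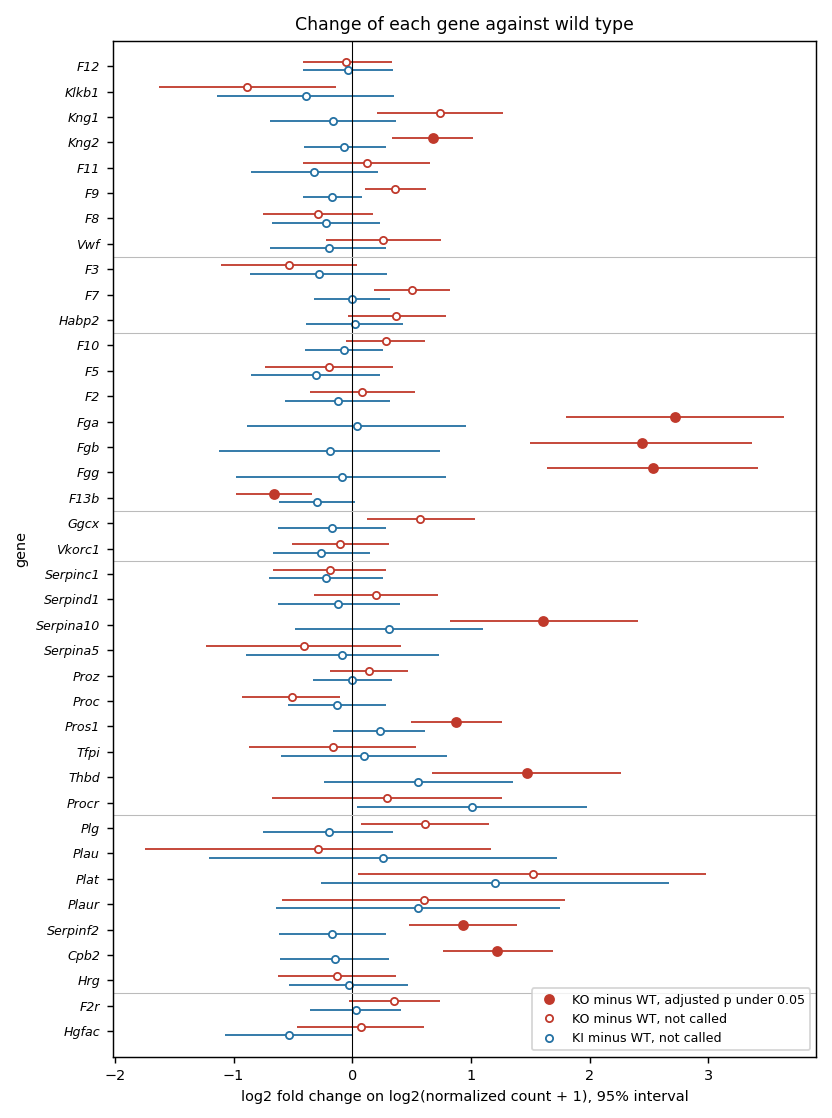
Log2 fold change against WT with its 95% interval from limma for each of the 39 genes, KO in red and KI in blue, filled where the adjusted p was under 0.05. The KO intervals of Fga, Fgb and Fgg start at 1.80, 1.50 and 1.64, above the KI intervals of the same genes, which end at 0.96, 0.74 and 0.79.

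The direct comparison of the mutants tests where they differ. In KI 10 of the 39 genes were lower than in KO and 0 were higher, where 8.45% of all genes were called, 4.85% lower and 3.6% higher. The lower genes were Fga, Fgb, Fgg, Cpb2, Serpinf2, Kng2, Kng1, F9, Pros1 and Serpina10. KI and KO did not overlap for 14 genes, all lower in KI, against 26.4% of all genes and 14.1% in that direction. The median over the 39 genes was -0.33, beside 0.01 over all genes.

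Cpb2 had the smallest adjusted p, with a log2 difference, KI minus KO, of -1.37 ± 0.21 (limma adjusted p = 0.00464). The fibrinogen genes gave the largest differences, -2.68 for Fga (adjusted p = 0.00519), -2.63 for Fgb (adjusted p = 0.0058) and -2.63 for Fgg (adjusted p = 0.00467), with KO means 6.82-fold, 6.64-fold and 6.59-fold above KI. These and the Cpb2 call held without any 1 library. Serpinf2 differed by -1.10 (adjusted p = 0.0113), Kng2 by -0.74 (adjusted p = 0.0186) and F9 by -0.54 (adjusted p = 0.019). The calls of Serpinf2, Kng2 and F9 each ended without KO_2, KI_1 or KI_3, at adjusted p from 0.0552 to 0.0904.

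Kng1, at -0.90 (adjusted p = 0.0456), Pros1, at -0.65 (adjusted p = 0.0466), and Serpina10, at -1.31 (adjusted p = 0.0498), passed narrowly. Leaving out KO_1 kept these 3 calls and leaving out KI_2 kept that of Kng1, whereas each other omission of a single library ended them, at adjusted p from 0.0617 to 0.186. F9 and Kng1 are called here and not against WT. Thbd and F13b are the reverse, with differences between KI and KO of -0.91 (adjusted p = 0.146) and 0.36 (adjusted p = 0.156). Ggcx (adjusted p = 0.0508), F7 (0.0619) and Plg (0.0673) came close to the threshold. Without the 3 libraries with pancreatic transcripts 0 of the 39 genes and 4 genes in all were called, and 4 of the 39 had an unadjusted p under 0.05, compared with 17 of the 39 and 24.9% of all genes in the fit of all 9 libraries. All 10 called genes kept their sign.

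The KO livers were not alike in these genes. KO_1 was the lowest KO library in 8 of the 9 genes that rose, yet the highest in 17 of the other 30. KO_3 was the lowest in 21 of those 30. How often these orders held over all genes was not counted. Fga stood 3.81-fold above the WT mean in KO_1, 10-fold in KO_2 and 7.44-fold in KO_3, and Serpina10 1.46-fold, 4.4-fold and 4.38-fold. The SD over the KO libraries exceeded that over the WT libraries in 35 of the 39 genes and in 64.8% of all genes tested. The median deviation from the WT mean was similar, at 0.38, 0.30 and 0.27 on the log2 scale.

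Levels were compared between genes per kilobase of annotated exon, with all annotated exons of a gene merged, so the order depends on that length. Serpinc1 and Kng1 had similar WT means, 104776 and 103034 normalized counts, but 8546 and 3250 exon bases placed them 11th and 5th. In WT livers the order began with Fgg at 86399, Fga at 61707 and Fgb at 56248 normalized counts per kilobase, followed by Plg at 32646 and Kng1 at 31703. It ended with Thbd at 40.5, Serpina5 at 23, Vwf at 20.8, Plau at 17.9, Procr at 16.3, Plaur at 6.19 and Plat at 2.28. Of the genes that rose in KO, Fga, Fgb and Fgg held the top 3 places, and Thbd was 33rd of 39, so the raised genes spanned most of the range of levels.

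Other haemostasis genes outside the set were read from a list of 32 genes, of which 28 passed the minimum. In KO against WT 5 were called higher and 0 lower, where 4.63% of all genes were called higher and 4.2% lower. Their median log2 fold change was 0.39, beside 0.00 over all genes. Only Fgl1 was called without the 3 libraries with pancreatic transcripts. Fgl1, a secreted fibrinogen-like protein, read 8661, 6045 and 8403 in WT, 104028, 237202 and 259286 in KO, and 7069, 8551 and 7156 in KI (KO against WT adjusted p = 4.97e-05). A2m, a broad protease inhibitor, read 2.88, 0.96 and 6.01 in WT, 199.8, 7844 and 8476 in KO, and 32.2, 30.1 and 11.2 in KI (adjusted p = 0.00222). Both had their lowest KO value in KO_1. Serping1, the C1 inhibitor that also blocks factor XIIa and kallikrein, rose 1.78-fold (adjusted p = 0.0133), and Tpst2, a tyrosine sulfotransferase, 1.5-fold (adjusted p = 0.0191). Both calls ended without WT_1, WT_3 or KO_2, at adjusted p from 0.0559 to 0.0735. In KI against WT 0 of the 28 were called. In KI against KO, where 4.85% of all genes were called lower, 6 were lower, namely Fgl1, Tpst2, Tfpi2, A2m, Serping1 and S100a10. None of these was called without the 3 libraries with pancreatic transcripts. The call of S100a10 also ended without any 1 library other than KO_1 or KO_3 (adjusted p 0.0566 to 0.117), that of Serping1 without KO_2, KI_1 or KI_3 (0.0781 to 0.0895) and that of A2m without KO_2 (0.0565).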

How the data were processed

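Stranded mRNA libraries from 9 livers were sequenced, per the labels. The authors deposited 1 table of normalized counts per gene (unit: signal). Per the submitters' processing notes, TopHat2, Bowtie2 and featureCounts were used with build GRCm38; versions, gene annotation, strand setting and scaling tool are not given in the sources used here. Reads of overlapping genes may thus be split or mixed: F5, Fgg, Habp2, Plg and Serpinc1 overlap exons of an opposite-strand gene. Each deposited column holds whole multiples of 1 step, so reads could be recovered by division; at least 99.995% of values per library came out whole within 0.0051 units, and 5 values did not. Totals were 59678412 to 66384374 reads.

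Genes with a mean of at least 10 over the 9 libraries (15238) were fitted as log2(value + 1) with limma 3.58.1 (R 4.3.3, variance trend, 1 mean per group, 6 residual degrees of freedom), two-sided, with Benjamini-Hochberg adjustment over those genes and a threshold of 0.05. Log2 fold changes are on this scale, which understates the change of low genes; errors are SE for fold changes and SD for means, and other folds are ratios of group means. Exact permutation of 3 against 3 cannot go below p = 0.1 and was not used. As alternatives, edgeR 4.0.16 and DESeq2 1.42.0 were run on the recovered reads. The other alternatives were a pseudocount of 5, no filter, TMM and total scaling, a replicate block, array weights, only the groups compared and each library left out; leaving out the 3 libraries with pancreatic transcripts was added after the data were seen. The limma script was tested on simulated data.

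Members, lists and tests were chosen with earlier results of these data known. Values in every library are given for genes of the set called in any comparison and for F2, the fibrinogen genes, Serpinc1, Plg, F8, Vwf and Snd1; of the uncalled genes, up to 5 per comparison with the smallest p are given; other genes by counts, unless said to be chosen after their values were seen. Coordinates and exons come from GENCODE M21 (GRCm38), promoters from RefSeq (GRCm38.p6). No library repeated another: the smallest chi-square per degree of freedom between libraries of a group was 62.6. A result on 1 gene of the list of other haemostasis genes is not reported here.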

Additional observations from a re-analysis of the deposited data

How the results depend on the processing

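The fibrinogen genes and Cpb2 were called in KO against WT and in KI against KO under 18 of 19 alternatives each, the exception being the fit without the 3 libraries with pancreatic transcripts. There KO against WT gave 0 genes of the set higher and 0 lower, KI against KO 0 lower, and the KI against WT median was 0.05. With array quality weights KO against WT gave 14 higher and 3 lower. With only the 2 groups compared it gave 0 lower, and KI against KO gave 5 lower. Leaving out 1 library moved the KO against WT counts to 4 to 10 higher (4 without WT_1, WT_3 or KO_2, 5 without WT_2) and 0 to 3 lower, and its median to 0.25 to 0.36, while the counts over all genes ranged from 266 (without KO_2) to 1104 (without KO_1) higher and from 233 (without WT_1) to 1412 (without KO_1) lower. It moved KI against KO to 4 to 11 lower (4 without KO_2, KI_1 or KI_3) and 0 to 3 higher (3 without KO_1), while all genes ranged from 240 (without KO_2) to 1066 (without KO_1) lower and from 160 to 1235 higher, without the same libraries. The causes of these changes were not tested. DESeq2 called 14 genes of the set in KO against WT, where it called 15.1% of all genes. For edgeR these values were 10 genes and 7.94%. Over all genes KO against WT gave 706 higher and 640 lower, 1208 and 1087 with DESeq2, 1547 and 1537 with array weights, and 376 lower with only the 2 groups compared. KI against WT gave 1 higher and 3 lower, DESeq2 163 and 209, and array weights 57 and 94. KI against KO gave 548 higher and 739 lower, DESeq2 1010 and 1277, array weights 1122 and 1319, and only the 2 groups compared 220 and 388.

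The replicate block, fitted on the title numbers, gave 10 higher and 1 lower in KO against WT, 11 lower in KI against KO and 0 in KI against WT, with 817 and 734 (KO against WT) and 634 higher and 866 lower (KI against KO) over all genes. Deviations of same-numbered libraries correlated from -0.136 to 0.568, over 0.1 in 3 of 9 pairs, so the numbers were not taken as pairs. Some uncalled values changed sign. Without the 3 libraries with pancreatic transcripts, KI against WT gave 0.06 for F2, 0.09 for Fgb, 0.18 for Fgg, -0.42 for Plat, 0.0010 for Plg and -0.12 for Thbd, and KI against KO gave 0.05 for F2, -0.35 for F8 and 0.21 for Serpinc1. With total scaling Fga in KI against WT was -0.06 and F8 in KI against KO -0.03. Over the omissions of 1 library, Fga in KI against WT ranged from -0.14 to 0.14, F8 in KI against KO from -0.08 to 0.28, Serpinc1 in KI against KO from -0.16 to 0.09 and F2 in KO against WT from -0.0001 to 0.19. What depth limits was not tested.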

Other observations

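Of 18 hepatocyte transcription factors, 2 rose and 2 fell in KO against WT (limma), where 4.63% of all genes were called higher and 4.2% lower. Stat3, the mediator of interleukin-6 signals, read 4834, 5467 and 3965 normalized counts in WT, 8743, 14206 and 10649 in KO, and 5040, 6895 and 5686 in KI, a log2 fold change of 1.22 ± 0.19 in KO (adjusted p = 0.00534). Foxa3, a forkhead factor of hepatocytes, rose by 0.67 ± 0.14 on the log2 scale (adjusted p = 0.018). Nr1i3, the constitutive androstane receptor, read 7841, 6128 and 5005 in WT, 3207, 2853 and 2688 in KO, and 3206, 4246 and 5158 in KI (adjusted p = 0.00919 in KO). Dbp, a clock output factor, read 3932, 3146 and 4134 in WT, 1243, 1225 and 265 in KO, and 2973, 3978 and 3401 in KI (adjusted p = 0.0169 in KO). In KI against WT 0 of the 18 were called. Without the 3 libraries with pancreatic transcripts 0 were called in KO against WT. There the call of Foxa3 also ended without WT_1, WT_2, WT_3 or KO_2 (adjusted p 0.0556 to 0.0674) and that of Dbp without WT_1 or WT_3 (0.0607 to 0.0674). Their relation to the coagulation genes was not tested.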
